A study of Mus musculus with 2 samples.

Results

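The genes described here are 39 genes of fatty acid uptake, activation and β-oxidation, compared between infarcted and sham-operated mouse hearts. They were listed by function, and every probe set annotated with 1 of these gene symbols and no other was taken. In this way 66 of the 45101 probe sets on the array were found, and they covered 36 of the 39 genes, out of 18193 genes in all. Acsl1, Cpt1b and Ucp2 had no such probe set and were not analysed here. Male C57BL/6J mice, 10 weeks old, underwent either permanent ligation of the left anterior descending artery (infarct) or the same operation without tying the vessel (sham), and no other treatment or allele is named in the labels. Hearts were collected at 3 days, and the RNA of 3 hearts was mixed into 1 pool per group, which went onto 1 array. The labels name the whole heart, so that infarcted and remote muscle are not separated. With 1 array per group there are no replicates and hence no test. Every difference given below sets a single infarct array against a single sham array.

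The heart draws most of its energy from fatty acids. They enter the cardiomyocyte through membrane carriers, are bound by a cytosolic carrier protein, and are activated to acyl-CoA by acyl-CoA synthetases on the outer mitochondrial membrane and other membranes. Carnitine carries the acyl group into the mitochondrion, and malonyl-CoA, made by acetyl-CoA carboxylases, inhibits this entry. In the matrix, repeated rounds of dehydrogenation, hydration, a second dehydrogenation and thiolysis shorten the chain and release acetyl-CoA, and electrons leave through the electron transfer flavoprotein. Many of these genes are targets of the nuclear receptors of the PPAR and ERR families.

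Values are RMA values on the log2 scale, and differences are infarct minus sham, so that -1 is a 2-fold lower value in the infarct pool. Differences were computed before rounding. A gene was represented by its brightest probe set, and a gene entered the comparison if this value was at or above the array's median in either pool (6.36 in sham hearts and 6.35 in infarcted hearts). All 36 genes passed this filter, as did 11961 of the 18193 genes. Acsl3 was the only one of the 36 that was under the median in the sham pool, and none was in the infarct pool. The difference varied between probe sets of a gene with a pooled SD of 0.23 (5190 genes with at least 2 bright probe sets). This SD reflects the probes, whereas the spread between mice is unknown, and precision is limited by having 1 array per group.

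Genes of fatty acid oxidation had lower values in the infarct pool at nearly every step. Of the 36 genes, 31 (86.1%) lay below 0, compared with 49.8% of all genes. A difference of -0.5 or lower was found for 24 genes (66.7%), compared with 8.72% of all genes. Only Ucp3 and Acot1 were at least 2-fold lower (5.56% of the 36, compared with 1.26% of all genes). Both were also among the 34 of all 11961 genes that were lower by 1.4 or more. A log2 difference of 1.4 is the size of the threshold that the study set for increases. The median difference of the 36 genes was -0.57 (1.49-fold lower), compared with 0 over all genes compared. The 5 genes above 0 were Acsl3, Acsl4, Acsl5, Acaca and Acad10. Of these, Acsl4 and Acsl5 were higher by 0.5 or more (5.56%, compared with 12.7% of all genes), and 0 were at least 2-fold higher (3.73% of all genes). These counts are a description of 2 arrays. In whole tissue, fewer cells of a type and less RNA per cell cannot be told apart.

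**Figure D1:**
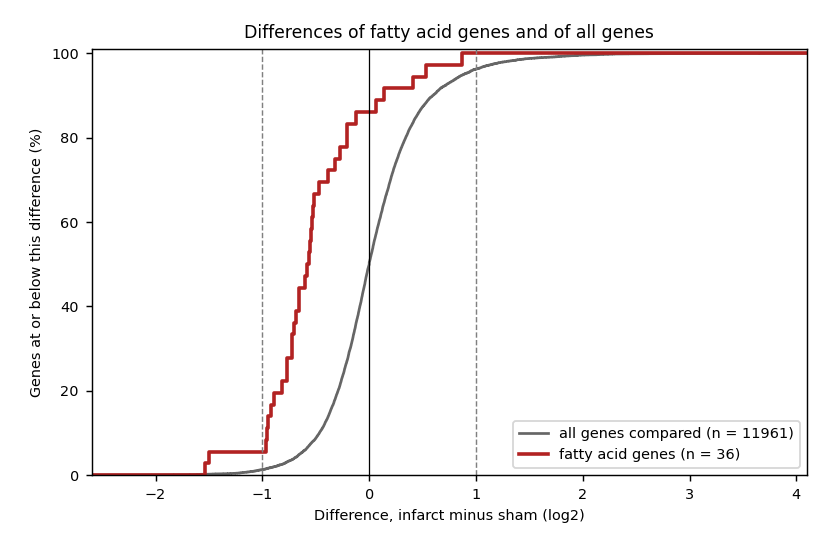
Cumulative share of genes (y axis, %) at or below each log2 difference, infarct minus sham (x axis), for the 36 fatty acid genes (red) and the 11961 genes compared (grey), with dashed lines at 2-fold. At a difference of 0 the red curve stands at 86.1% and the grey one near 49.8%.

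The zero of the scale bears on these counts. Centring the arrays on the hybridisation controls (18 probe sets for transcripts added to each sample, on average 0.32 lower in the infarct pool) left 26 of the 36 genes below 0 (72.2%), compared with 18.1% of all genes. A set of 8 housekeeping genes was on average 0.50 higher in the infarct pool, from 0.0099 (Tbp) to 1.12 (Gusb). Of the 2 probe sets of Actb, 1 gave 0.82 and the other -0.62. Centring on these 8 genes put 34 of the 36 genes below 0 (94.4%), compared with 87.3% of all genes. The number at least 2-fold lower went from 2 to 24 with this shift of every gene, and that of all genes from 151 to 1045 (8.74%). Centring moves every gene alike, so the distance of 0.57 between the median of the 36 genes and that of all genes is the same under each centring. Cd36, Fabp3, Cpt1a, Acadl and Acaa1a lay above 0 with hybridisation controls as the zero, and Acsl3, Acaca and Acad10 lay below 0 with housekeeping genes as the zero. The signs of these 8 genes, by their brightest probe sets, therefore depend on the zero chosen, and the other 28 kept theirs under all 5 centrings. Which zero is right was not tested.

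**Figure D2:**
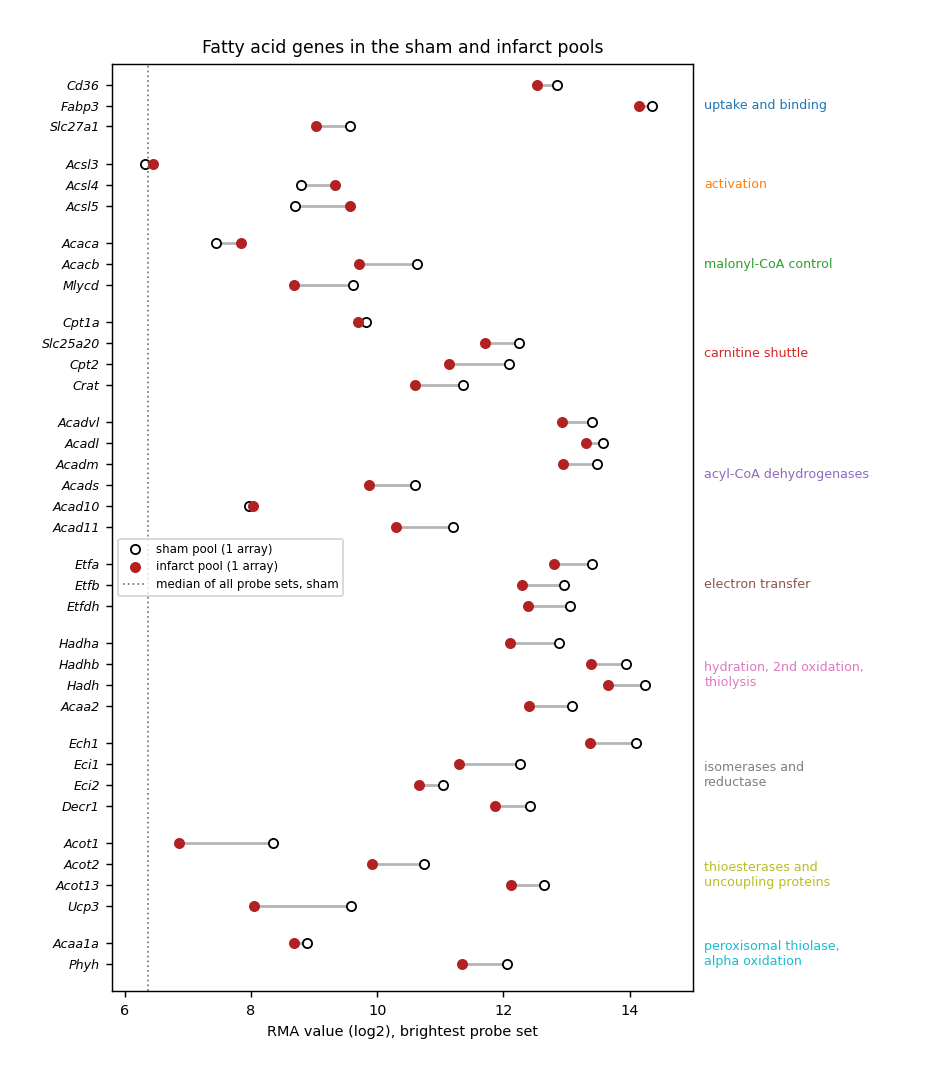
RMA value (log2, x axis) of the brightest probe set of each of the 36 genes, ordered by step, for sham (open circles) and infarct (red), 1 array each, with the median of all sham values dotted. The red point lies to the left of the open circle for 31 genes, with the lowest difference at -1.53 (Ucp3), and to the right for the 3 acyl-CoA synthetases, Acaca and Acad10.

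By their brightest probe sets, uptake and binding genes differed least of the steps with a median below 0. Their median was -0.32, or 0.00047 with hybridisation controls as the zero. With the mean over bright probe sets it was -0.53, lower than that of the peroxisomal genes (-0.45) and of the acyl-CoA dehydrogenases (-0.51). The rank of this step thus depended on the choice of probe set. Cd36, the membrane receptor for long-chain fatty acids, had a value of 12.86 in sham hearts and 12.54 in infarcted hearts, a difference of -0.32. Its other probe sets differed by -0.60 and -1.04, so that the size of the difference depended on the probe set. Fabp3, the cytosolic fatty acid-binding protein of the heart, went from 14.35 to 14.15 (-0.21), within the SD between probe sets, and its second probe set gave -0.38. Slc27a1, a fatty acid transport protein, was at 9.56 in sham hearts and 9.04 in infarcted hearts (-0.52), and its second probe set gave -0.53.

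Of the acyl-CoA synthetases, which activate the fatty acid, the 3 analysed lay above 0, and so did the median of the step. Acsl1 was not analysed, and Acsl6, a synthetase not among the 39 genes, lay below 0 at -0.99. Acsl5 had a value of 8.70 in sham hearts and 9.56 in infarcted hearts, a difference of 0.86. Acsl4, which prefers arachidonate, was at 8.80 and 9.32 (0.53). Its other probe sets gave 0.35 and 1.34, but both were under the median in the sham pool, and the latter was at 5.14 there and 6.47 in the infarct pool. Acsl3 was close to the filter in both pools, at 6.31 and 6.45, and its 0.14 is within the SD between probe sets. The median of the step was 0.53, or 0.029 with housekeeping genes as the zero, where Acsl3 lay below 0 at -0.36.

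Genes that set the level of malonyl-CoA went in both directions. Acacb, the acetyl-CoA carboxylase isoform of heart and skeletal muscle that sits at the mitochondrion, was at 10.64 in sham hearts and 9.72 in infarcted hearts (-0.92, 1.89-fold lower). Mlycd, the decarboxylase that removes malonyl-CoA, was lower by nearly the same amount, at 9.62 and 8.67 (-0.95). Thus the genes of a maker and a remover of malonyl-CoA had similar differences, 0.027 apart, which is under the SD between probe sets. Acaca, the cytosolic isoform that feeds fatty acid synthesis, was at 7.44 and 7.85 (0.41), and lay at -0.090 with housekeeping genes as the zero.

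In the carnitine shuttle, all 4 genes analysed lay below 0, and Cpt1a differed from the others. Cpt2, the transferase of the inner membrane, was at 12.09 in sham hearts and 11.13 in infarcted hearts (-0.96, 1.94-fold lower). Crat, which buffers acetyl-CoA as acetylcarnitine, was at 11.36 and 10.59 (-0.77), with other probe sets at -0.58 and -0.38. Slc25a20, the translocase that exchanges acylcarnitine for carnitine, was at 12.25 and 11.71 (-0.54), with a second probe set at -0.74. Cpt1a, the isoform of the entry enzyme best known from liver, was at 9.82 and 9.69 (-0.12), while its other probe sets lay above 0 at 0.26 and 0.22. The sign of Cpt1a is thus not settled by these arrays, and it turned positive with hybridisation controls as the zero.

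Of the acyl-CoA dehydrogenases, which open each round of β-oxidation, 5 of 6 lay below 0. The enzymes for very long, long and medium chains had high values in both pools and modest differences. Acadvl was at 13.40 in sham hearts and 12.93 in infarcted hearts (-0.47), and Acadm was at 13.48 and 12.94 (-0.54). Acadl was at 13.59 and 13.31, and its -0.27 was the smallest of these and turned positive (0.046) with hybridisation controls as the zero. The short-chain enzyme gene Acads differed more, with 10.59 and 9.87 (-0.72). Acad11 was at 11.20 and 10.30 (-0.89), with a second probe set at -0.62. For Acad10 the probe sets disagreed. The brighter one gave 0.064 (7.97 and 8.04), whereas the other, of nearly the same brightness, gave -0.68, so the direction of Acad10 is unknown here.

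The genes that carry electrons from these dehydrogenases to ubiquinone differed by almost the same amount. Etfa and Etfb, the subunits of the electron transfer flavoprotein, went from 13.41 to 12.81 (-0.60) and from 12.95 to 12.29 (-0.66). Etfdh, the oxidoreductase that accepts their electrons, was at 13.06 in sham hearts and 12.39 in infarcted hearts (-0.66). These 3 differences lay within 0.059 of each other, which is less than the SD between probe sets of a single gene.

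All 4 genes for hydration, the second oxidation and thiolysis had lower values, from -0.77 to -0.55. Hadha and Hadhb encode the subunits of the trifunctional protein, which carries out these steps for long chains. Hadha was at 12.88 in sham hearts and 12.11 in infarcted hearts (-0.77), and Hadhb at 13.94 and 13.39 (-0.55), with other probe sets of Hadhb at -0.42 and -0.85. The difference of Hadha thus lies within the range of the probe sets of Hadhb. Hadh, the dehydrogenase for medium and short chains, was at 14.24 and 13.66 (-0.59), with other probe sets at -0.76 and -0.60. Acaa2, the mitochondrial thiolase, had 3 probe sets between -0.69 and -0.61 and values of 13.09 and 12.41 at the brightest.

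Hadha and Hadhb start head to head on opposite strands, and the stretch between their starts is shown because these partner subunits share it. It is printed on the strand of Hadhb, in the build GRCm38.p6 of RefSeq, at chr5:30154981-30155252 (272 bases). Capitals would mark the nuclear receptor half-site AGGTCA on either strand, and the stretch holds none.
Hadha-Hadhb: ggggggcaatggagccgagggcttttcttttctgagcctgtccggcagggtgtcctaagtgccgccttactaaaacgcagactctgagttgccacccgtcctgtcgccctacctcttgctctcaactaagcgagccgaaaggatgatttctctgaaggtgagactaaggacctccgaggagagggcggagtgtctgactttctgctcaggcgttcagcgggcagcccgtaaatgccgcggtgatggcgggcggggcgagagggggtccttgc

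The auxiliary enzymes, which bring unsaturated chains into β-oxidation, were all below 0. Eci1, an enoyl-CoA isomerase, had the largest difference of them, with 12.27 in sham hearts and 11.30 in infarcted hearts (-0.97, 1.96-fold lower). Ech1, a dienoyl-CoA isomerase, was at 14.10 and 13.37 (-0.73). Decr1, the dienoyl-CoA reductase, was at 12.43 and 11.87 (-0.56), and its second probe set gave a larger difference of -1.14. Eci2, an isomerase of mitochondria and peroxisomes, was at 11.05 and 10.66 (-0.39).

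The step of the thioesterases, which release free fatty acid from acyl-CoA, and the uncoupling protein gene Ucp3 had the lowest median of any step (-1.16). Only Ucp3 and Acot1 stood out in it, while Acot2 and Acot13 lay within the range of other steps. Ucp3, a mitochondrial carrier of muscle and a classical PPAR target, was at 9.58 in sham hearts and 8.05 in infarcted hearts (-1.53, 2.89-fold lower). Its second probe set gave -1.36. Among the 11961 genes compared, only 21 had lower differences. The cytosolic thioesterase gene Acot1 was at 8.35 and 6.85 (-1.50, 2.83-fold lower), by its 1 probe set. Its mitochondrial relative Acot2 was at 10.73 and 9.92 (-0.82), and the second probe set of Acot2, under the median in the infarct pool, gave -0.81. Acot1 and Acot2 are close paralogs and neighbours on chromosome 12, and how far their probes tell them apart was not tested. Acot13, a thioesterase associated with mitochondria, was at 12.64 and 12.12 (-0.52). After centring on the hybridisation controls Ucp3 (-1.22) and Acot1 (-1.18) were still at least 2-fold lower.

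The bases just before the starts of Ucp3 and Acot1 are shown because these were the genes at least 2-fold lower. They are from RefSeq (GRCm38.p6), 160 bases each and both on the plus strand, with the half-site AGGTCA in capitals, at chr7:100472831-100472990 for Ucp3 and at chr12:84009342-84009501 for Acot1.
Ucp3: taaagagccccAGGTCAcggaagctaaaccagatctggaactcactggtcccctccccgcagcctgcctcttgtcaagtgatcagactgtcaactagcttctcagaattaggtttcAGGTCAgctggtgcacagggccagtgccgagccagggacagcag
Acot1: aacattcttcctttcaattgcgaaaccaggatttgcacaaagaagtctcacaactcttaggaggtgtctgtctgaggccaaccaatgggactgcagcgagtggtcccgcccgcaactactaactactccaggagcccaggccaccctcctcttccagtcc
The promoter of Ucp3 holds 2 half-sites, from -149 to -144 and from -44 to -39 relative to the start, while that of Acot1 holds none in its whole window. Of 37 windows of 300 bases (250 before and 50 after the start) for 34 of the 39 genes, 7 (18.9%) hold AGGTCA on either strand, compared with 16.3% of all 32851 windows. The others with a match were those of Acadm, Cd36, Acacb, Acadvl, Cpt1a and Phyh, with differences from -0.92 to -0.12. The half-site preceded by T, any base and A, which is known from ERR receptors, was in 0 of the 37 windows (1.28% of all), and 2 half-sites AGGNCA in direct repeat with 1 base between them, the pattern bound by PPAR and RXR, in 0 (0.381% of all). A match is a description of letters in the window, and the extended forms overlap the half-site.

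The peroxisomal genes on the list had lower values as well. Phyh, which starts α-oxidation of branched chains, was at 12.06 in sham hearts and 11.35 in infarcted hearts (-0.71). Acaa1a, the peroxisomal thiolase, was at 8.88 and 8.68 (-0.21), with a second probe set at -0.19, both within the SD between probe sets. Acaa1a lay at 0.11 with hybridisation controls as the zero.

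**Figure D3:**
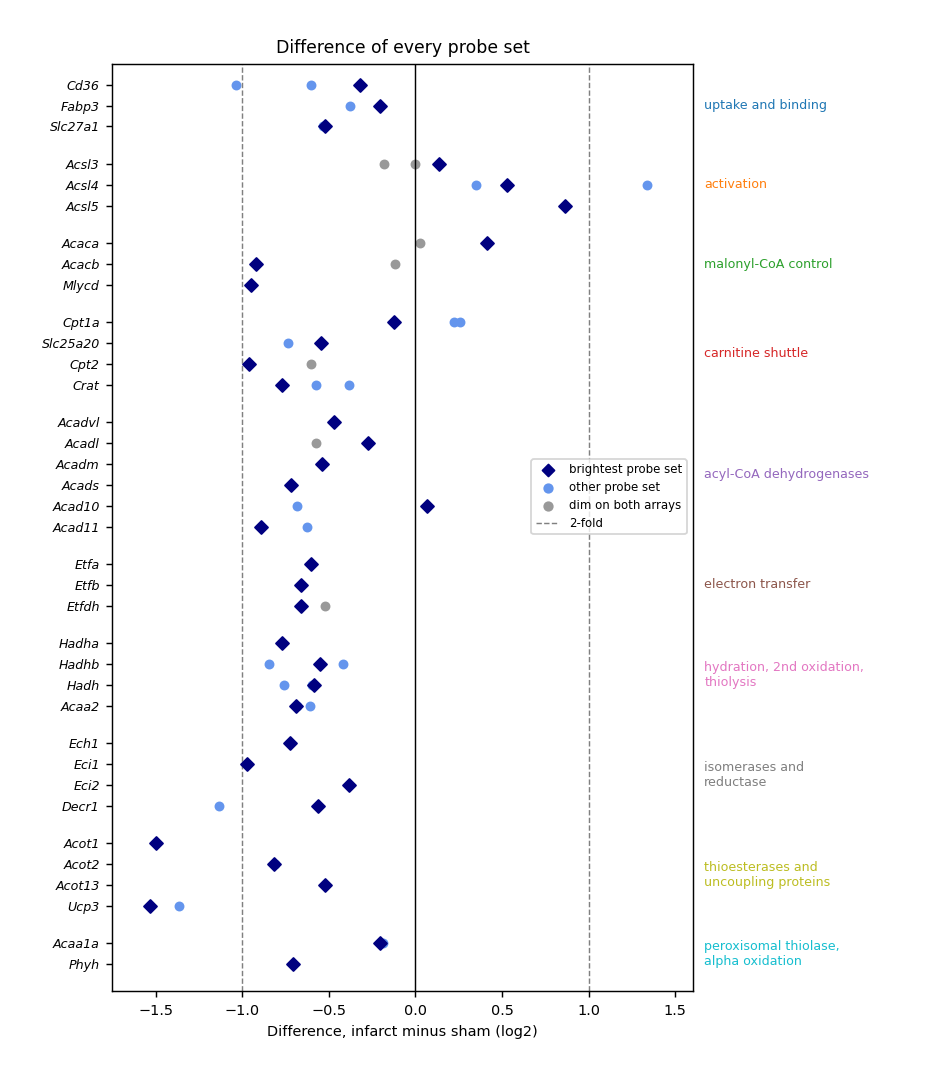
Log2 difference (infarct minus sham, x axis) of each of the 66 probe sets by gene and step, with the brightest probe set of a gene as a dark diamond, its other probe sets in light blue, and those under the median of both arrays in grey. Of the 59 bright probe sets 50 lie to the left of 0, and those of Acad10 and Cpt1a lie on both sides.

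In most genes the probe sets gave the same direction. Of the 59 bright probe sets, 50 (84.7%) lay below 0, compared with 50.2% of all bright probe sets. The 7 dim ones included 5 below 0. In 14 of the 16 genes with at least 2 bright probe sets, all of them lay on the same side of 0, and the exceptions were Cpt1a and Acad10. Yet the size was less certain than the direction. In Cd36, Acsl4, Acad10 and Decr1 the probe sets ranged over more than 0.46, which is 2 times the SD. Another 14 genes rested on a single probe set, among them Acot1, Eci1, Mlycd and Acsl5. In Acsl3, Acaca, Acacb, Cpt2, Acadl and Etfdh only 1 probe set was bright, so they too rested on a single usable value.

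Isoforms of the same step could differ in direction. For acetyl-CoA carboxylase, the muscle isoform Acacb was lower (-0.92) and the cytosolic isoform Acaca higher (0.41, or -0.090 with housekeeping genes as the zero), a gap of 1.33 that no centring changes. For the fatty acid-binding proteins, Fabp3 differed by -0.21 and Fabp4, found in adipocytes, endothelium and macrophages, by -0.059, both above 0 with hybridisation controls as the zero. Other probe sets gave -0.38 for Fabp3 and, among the 4 of Fabp4, down to -0.69. Fabp5, which macrophages and endothelial cells express, was at 11.79 in sham hearts and 12.71 in infarcted hearts (0.92), and its second probe set gave 1.03. Acsl1, Cpt1b and Ucp2 were not analysed, so that the comparisons of Acsl, Cpt1 and Ucp isoforms are incomplete. Whether any pair of isoforms differed beyond the spread between mice was not tested.

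Of 57 other genes of the pathway, listed by function, 48 were compared. Below 0 were 32 of them (median -0.20, or 0.12 with hybridisation controls as the zero), 2 were at least 2-fold lower and 1 higher. The 10 other genes of mitochondrial β-oxidation and of propionyl-CoA and branched-chain amino acid breakdown were all below 0. Their median was -0.59, or -0.27 with hybridisation controls as the zero. The lowest of them were Acad12 (-0.79), Pcca (-0.77) and Mcee (-0.77). The 9 other peroxisomal genes lay below 0 as well, with a median of -0.43 (-0.11 after that centring). Ehhadh, the bifunctional enzyme of peroxisomal β-oxidation, was 2-fold lower, at 7.82 in sham hearts and 6.80 in infarcted hearts (-1.02), followed by Pex11a (-0.81), which takes part in peroxisome division, and Amacr (-0.77). By contrast, all 9 genes of fatty acid synthesis, elongation and desaturation were above 0, with a median of 0.50 that housekeeping genes as the zero brought to 0.0015. Among them, Scd1 (0.065) and Fasn (0.15) were within the SD between probe sets. Bright probe sets of Fads1 ran from 0.028 to 0.50 and those of Fads2 from 0.049 to 0.66. The elongase gene Elovl1 was 2-fold higher, at 9.46 and 10.50 (1.05), and Elovl6 (0.95, dim in the sham pool) and the desaturase gene Scd2 (0.85) followed.

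Other genes of uptake, activation and deacylation were mixed. Of 7 further uptake genes 4 lay below 0 (median -0.059, or 0.26 with hybridisation controls as the zero). Vldlr, the receptor for very low-density lipoprotein, was at 12.56 in sham hearts and 11.52 in infarcted hearts (-1.04), and its 6 probe sets, all bright, ran from -1.56 to -1.04. Got2, also known as a fatty acid-binding protein of the plasma membrane, differed by -0.36. Among 7 further genes of activation and carnitine supply, 5 lay below 0 (median -0.26, or 0.054 after that centring), with Acsl6 at -0.99, the carnitine transporter gene Slc22a5 at -0.73 and Cpt1c at 0.39, which is below 0 with housekeeping genes as the zero. Of 6 other thioesterase genes 4 lay below 0 (median -0.070, or 0.25 with hybridisation controls as the zero). Acot9 was the highest of them at 0.94, Acot11 lowest at -0.44, and Acot3 differed by -0.15, a sign that the hybridisation controls as the zero would turn.

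**Figure D4:**
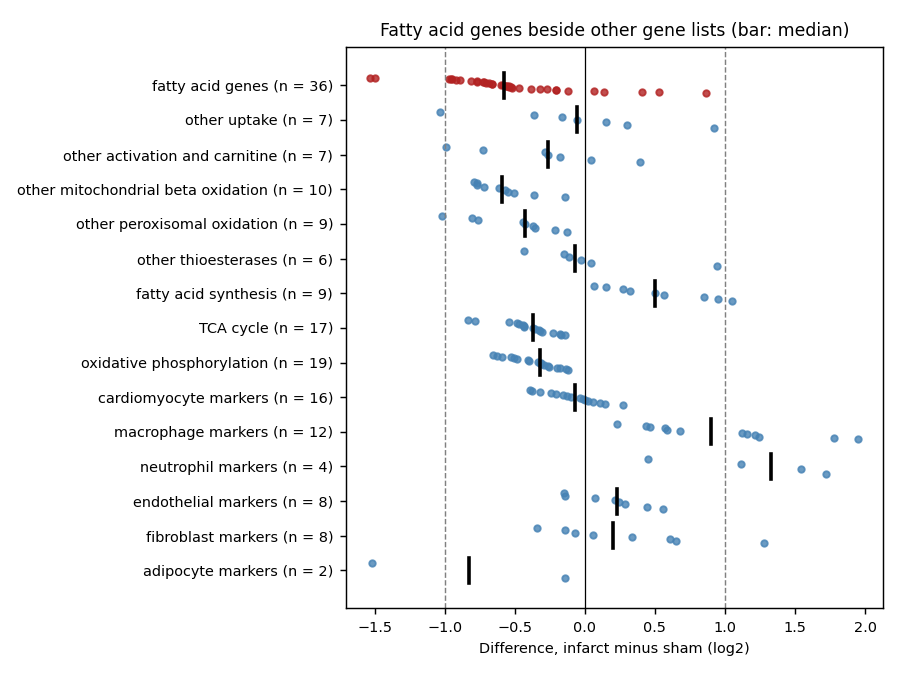
Log2 difference (infarct minus sham, x axis) of each gene in the 36 fatty acid genes (red) and in other lists (blue), 1 point per gene, with the median of each list as a black bar and dashed lines at 2-fold. The list of other mitochondrial β-oxidation genes (median -0.59) lies beside the red points (-0.57). That list also holds genes of propionyl-CoA and branched-chain amino acid breakdown. Cardiomyocyte markers lie near 0 (-0.068), and fatty acid synthesis (0.50) and macrophage markers (0.90) to the right. Centring on the housekeeping genes would move every point to the left by 0.50.

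Set beside the rest of oxidative metabolism, the median of the 36 genes was -0.57, that of 17 TCA cycle genes -0.37 and that of 19 genes of oxidative phosphorylation -0.32. By their brightest probe sets all 17 and all 19 lay below 0 (medians of -0.050 and -0.0010 with hybridisation controls as the zero), and none was 2-fold lower. Bright probe sets of Idh3b ran from -0.80 to 0.027, those of Dlst from -0.17 to 0.089 and those of Ndufb8 from -0.33 to 0.10. The difference between these lists was not tested. The 16 markers of cardiomyocytes had a median of -0.068 (0.25 with hybridisation controls as the zero), 11 of them lay below 0, and their mean value was 14.25 in sham hearts and 14.17 in infarcted hearts. With their median taken as the zero, 31 of the 36 fatty acid genes (86.1%) still lay below 0, compared with 42.2% of all genes. The median of the fatty acid genes was then -0.51, and that of all genes 0.068. Some other probe sets of the markers gave lower values, down to -0.85 for Ttn, -0.67 for Myh6, -0.66 for Ryr2 and -0.60 for Tnnt2. In the other direction, the 4 probe sets of Tpm1 ran from -0.35 to 0.95. The median of the markers was -0.16 with the mean over bright probe sets and -0.21 with the probe set of largest difference. In these settings the median of the fatty acid genes was -0.64 and -0.70. The markers had sham values from 13.01 to 14.85, near the highest value on the arrays (14.90), where signals can be compressed. Of the 36 fatty acid genes 10 had sham values in the range of these markers, as did 8 of the 17 TCA cycle genes and 17 of the 19 genes of oxidative phosphorylation.

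Markers of other cells differed between the pools as well. All 12 macrophage markers were above 0 (median 0.90, and 0.40 with housekeeping genes as the zero), and their mean value went from 9.52 in sham hearts to 10.47 in infarcted hearts. The 4 neutrophil markers bright enough, of 7 listed, were above 0 too (median 1.33, mean values 7.44 and 8.65). Of 8 endothelial markers 6 lay above 0 (median 0.23), and of 8 fibroblast markers 5 did (median 0.20), both medians falling below 0 with housekeeping genes as the zero. Only 2 of 6 adipocyte markers were bright enough, and Adipoq, the adiponectin gene, was lower at -1.52 (7.43 and 5.91, under the median in the infarct pool), while Retn differed by -0.14 and Lep and Cidec were dim in both pools. The part of these cells in the differences of the fatty acid genes was not tested.

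**Figure D5:**
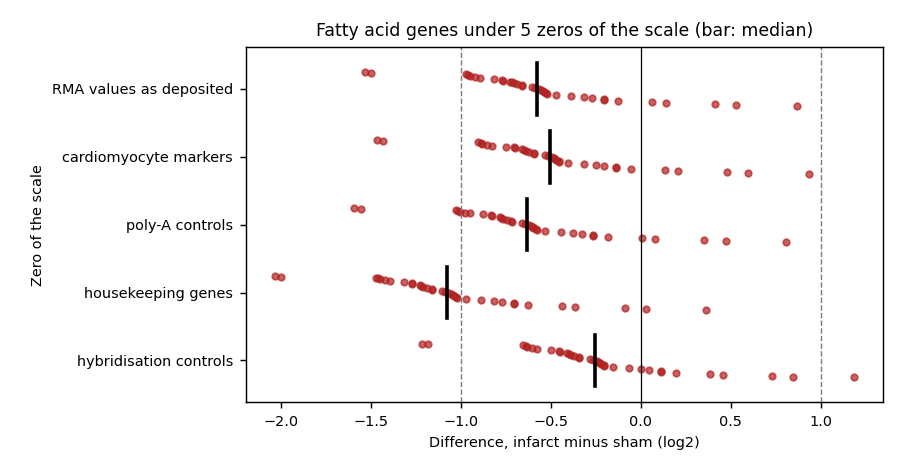
Log2 difference (infarct minus sham, x axis) of the 36 fatty acid genes, 1 point per gene with the median as a black bar, with the zero of the scale left as deposited or set on cardiomyocyte markers, poly-A controls, housekeeping genes or hybridisation controls (y axis). The median runs from -1.07 (housekeeping genes) to -0.26 (hybridisation controls), and the order of the genes is the same in each row.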

How the data were processed

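Per the labels and the study's methods, RNA from 3 hearts per group was extracted with ISOGEN and an RNeasy kit, and the labelled cRNA was put onto GeneChip arrays of the mouse genome. The deposited values are RMA values on the log2 scale (2.95 to 14.90): the authors corrected for background, normalized the 2 arrays and summarised each probe set to 1 value. The RMA software is not given in the sources used here. RMA gives both arrays nearly the same distribution, so that a difference in total mRNA cannot be seen.

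Gene symbols came from the platform annotation, in which 34945 had 1 gene symbol, 932 several and 9160 none, and 34741 matched RefSeq genes of GRCm38.p6. The probe set with the highest mean over both arrays stood for the gene, which was called lower or higher at a log2 difference of 1, and counts at 0.5 and 1.4 are also given. With 1 array per group there is no p-value, and leaving out an array was not possible. The genes, the other lists and the settings were chosen with earlier results of these data known. All 36 analysed genes are named, and of the other pathway lists the 3 genes with the largest differences. Of the isoform pairs both members are named. Further genes are named where their probe sets or small differences limit a count. The alternatives changed the scaling, the choice of probe set, the filter and the threshold. The 8 housekeeping genes were those bright enough of 11 listed. The calculation was checked on simulated data, with planted differences larger in size than those of the 36 genes and with no spread between mice. Promoter windows are those of RefSeq starts, and Cpt1b, Crat, Acaa2, Decr1 and Acot13 had none. Python 3.11.15 with numpy 2.4.6, pandas 2.3.3 and statsmodels 0.14.6 was used, and figures were drawn with matplotlib 3.10.9.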

Additional observations from a re-analysis of the deposited data

How the results depend on the processing

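The number of fatty acid genes below 0 was 31 of 36 as deposited and ran from 26 to 34 under the other scalings, probe set rules and filters, and 9 of the 10 steps had a median below 0 (8 after centring on the hybridisation controls). Counting probe sets in place of genes gave 50 of 59 below 0, 5 at least 2-fold lower (1.19% of all bright probe sets) and 1 higher (3.52%). The median of -0.57 was -1.07 after centring on the housekeeping genes and -0.26 after centring on the hybridisation controls. The number at least 2-fold lower, 2 as deposited, was 24 after centring on the housekeeping genes (8.74% of all genes), 5 after centring on the poly-A controls (1.66%) and 4 with the probe set of largest difference for each gene (1.70%). It was 24 at a threshold of 0.5 (8.72% of all genes) and 2 at 1.4 (34 of the 11961 genes compared). The number at least 2-fold higher, 0 as deposited, was 1 after centring on the hybridisation controls (8.04%), 1 with the probe set of largest difference (4.48%) and 2 at a threshold of 0.5. Over all genes, 151 were at least 2-fold lower and 446 higher as deposited, against 1045 and 146 after centring on the housekeeping genes and 40 and 962 after centring on the hybridisation controls. With the mean over bright probe sets, Cpt1a and Acad10 changed sign. No paired analysis was possible because each group has 1 array. The spread between mice is unknown, and probe sets near the median of the array are little above background.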

Other observations

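Some probe sets carried the symbol of a fatty acid gene together with that of another gene, and they were given to neither. The probe set annotated to both Acot1 and Acot2 had a value of 8.94 in sham hearts and 7.77 in infarcted hearts, a difference of -1.17. It lies between the differences of Acot1 (-1.50) and Acot2 (-0.82) by their own probe sets. The probe set annotated to Cpt1b and to its neighbour Chkb, a choline kinase gene, and to Gm44502 was at 11.75 and 10.95 (-0.79). The share of each gene in that signal is unknown. Another pair annotated to Acaa1a and Acaa1b differed by -0.33 and -0.28, compared with -0.21 for Acaa1a alone, and the only probe set of Acaa1b itself was dim in both pools.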
